A study of Mus musculus with 2 samples.

Results

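Neutrophils carry their antimicrobial proteins in granules that are filled in order as the cell matures, and the 10 genes described here follow that order. Mpo, Elane and Prtn3 encode enzymes of the azurophil granules, which are made early, at the promyelocyte stage. Ngp, Camp, Ltf and Lcn2 encode proteins of the specific granules, which are made later, at the myelocyte and metamyelocyte stages. S100a8, S100a9 and Retnlg are strongly expressed in late and mature neutrophils and encode 2 calcium-binding proteins of the cytosol and a secreted relative of resistin. In the newborn mouse, granulocytes are produced in the liver as well as in spleen and bone marrow, and they circulate through every organ, so their RNA in a whole gland can come from cells in its vessels as well as in its tissue. Because mRNA of the azurophil genes is shut off as the cell matures, the balance of azurophil over specific granule mRNA is commonly read as a balance of early over late granulocytes.

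The genes were chosen by name, as known granule and late neutrophil genes, with earlier results of these data known, and matched by Ensembl identifier. All 10 were found among 43346 Ensembl genes in the tables, and all 10 passed the minimum mean count of 10 that 18670 genes passed. The tissue was the adrenal gland of mice of strain B6NCrl at postnatal day 0, whose cortex makes steroids and whose medulla makes catecholamines. Total RNA was sequenced in 2 libraries, pup 2 and pup 1, each from the 2 adrenals of 1 pup. Per the labels both pups came from pregnant animal 1, their sex was not collected, no treatment or mutation is named, and 10 ng of RNA entered each library. The libraries held 40799478 (pup 2) and 41504343 (pup 1) estimated counts in Ensembl genes. They are the replicates of a single group, which leaves nothing to test a gap between pups against, and p-values are therefore absent.

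Markers of the gland's own steroid and catecholamine cells were high in each library, as the tissue label has it, and they also differed between the pups. The adrenal cortex markers Star, Cyp11a1, Cyp11b1 and Hsd3b1 summed to 11775 TPM in pup 2 against 4747 TPM in pup 1, and the chromaffin markers Th, Dbh, Chga and Chgb to 3065 and 1287 TPM. TPM is an abundance scaled per transcript length and per library, so levels of different genes can be compared, and it is used here for levels. Ratios of pup 2 over pup 1 use counts scaled by TMM, a method that sets the bulk of genes level. They are given on the log2 scale with exact binomial 95% intervals, which cover counting error only. The median log2 ratio over the 18670 genes was 0.0015, and the quartiles were -0.45 and 0.34. A gene's log2 ratio by TPM exceeded that by scaled counts by 0.39 at the median. In bulk tissue, fewer cells of a type and less RNA per cell cannot be told apart.

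The promoters of the genes are shown first, with the places of short words that were picked from them. All 10 matched an entry in the RefSeq promoter table (GRCm38.p6), which gives 250 bases before and 50 after each gene's start. They were searched on both strands for GAGGAAGT, a core word bound by the ETS factor PU.1, and for TTGCNNAA, a form of the word bound by C/EBP factors. Both words were picked after the member sequences had been looked at. Their split by class and the shares below are therefore a description and test no difference between classes. The first was found in all 3 azurophil genes, 0 of 4 specific granule genes and 1 of 3 late neutrophil genes (S100a8), against 3.20% of 32851 windows of that length. The second was found in 0 of 3 azurophil genes, 3 of 4 specific granule genes (Ngp, Ltf, Lcn2) and 2 of 3 late neutrophil genes (S100a9, Retnlg), against 10.8% of windows. No member held both words, and Camp held neither. Such a match is a description of letters and not a site of binding. The stretches below lie before the RefSeq start and outside the annotated exons of their genes, read 5′ to 3′ on the gene's strand, with the matched word in capitals.
Mpo, chr11:87793534-87793580, plus strand: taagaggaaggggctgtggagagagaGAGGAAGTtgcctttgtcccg
Elane, chr10:79886182-79886246, plus strand: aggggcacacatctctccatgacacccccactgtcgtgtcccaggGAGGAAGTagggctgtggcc
Prtn3, chr10:79879527-79879613, plus strand: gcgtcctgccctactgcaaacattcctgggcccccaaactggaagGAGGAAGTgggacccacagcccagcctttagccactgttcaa
Ngp, chr9:110419625-110419722, plus strand: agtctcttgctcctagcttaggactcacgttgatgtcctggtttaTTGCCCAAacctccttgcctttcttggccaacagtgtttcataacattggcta
Ltf, chr9:111019172-111019269, plus strand: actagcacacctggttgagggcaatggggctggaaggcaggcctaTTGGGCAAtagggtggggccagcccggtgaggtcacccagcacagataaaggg
The word began 85 bases before the RefSeq start in Elane, 95 in Prtn3 and 224 in Mpo. In Ltf the word is read on the opposite strand, 75 to 68 bases before the start. These distances depend on the start used. The stretches of Mpo and Elane end where their GENCODE genes begin, ahead of the RefSeq start. The RefSeq start of Prtn3 lies inside the longer GENCODE gene. The window of Lcn2 (32387690 to 32387989, minus strand) lies wholly inside its GENCODE gene, which begins at 32388252. The match counted for Lcn2 therefore lies before the RefSeq start but not before the GENCODE start. Ngp held another match, 11 to 4 bases before the RefSeq start, which lies past the start of its GENCODE gene.

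The members covered a wide range of levels, led by the S100 pair in each library. S100a8 had 248 TPM in pup 2 against 483 TPM in pup 1, which placed it at rank 590 and rank 272 of all Ensembl genes. S100a9 had 123 TPM in pup 2 against 228 TPM in pup 1, at ranks 1229 and 544. The other 8 members lay between 5.22 TPM (Ltf) and 24.98 TPM (Ngp) in pup 2 and between 5.68 TPM (Elane) and 44.6 TPM (Ngp) in pup 1. Summed over the 10 genes the level was 479 TPM in pup 2 against 865 TPM in pup 1, of which S100a8, S100a9 and Retnlg held 380 TPM and 731 TPM. In each library, S100a8, S100a9, Ngp, Camp and Lcn2 were the 5 highest, in that order. The order below these differed between the libraries: Mpo, Retnlg, Elane, Prtn3 and Ltf in pup 2, and Retnlg, Prtn3, Ltf, Mpo and Elane in pup 1. Neighbours whose quantifier intervals for TPM overlapped, and so cannot be ordered, were Ngp and Camp, Mpo and Retnlg, Retnlg and Elane, and Elane and Prtn3 in pup 2, and Prtn3 and Ltf, Ltf and Mpo, and Mpo and Elane in pup 1.

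**Figure D1:**
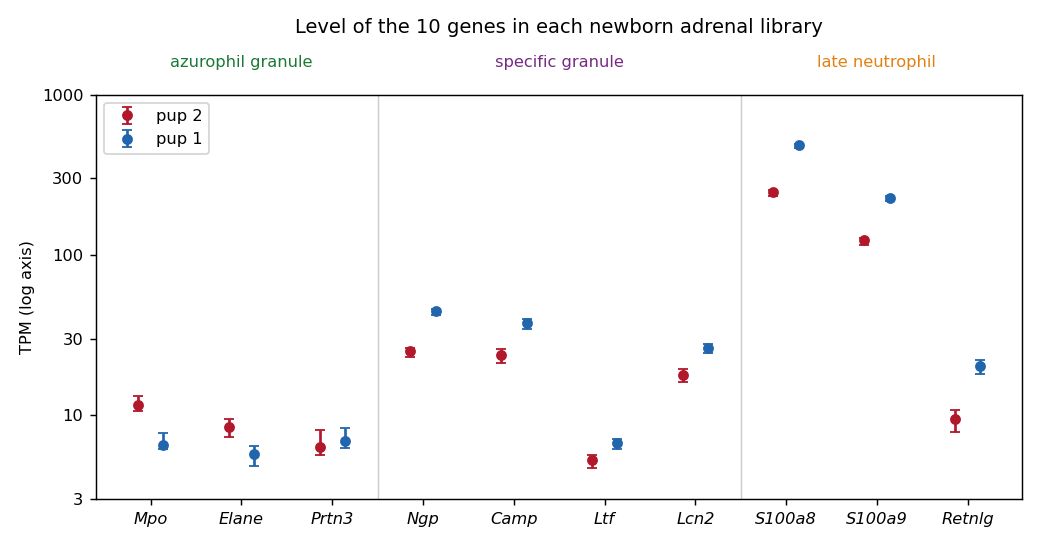
Level of each of the 10 genes in TPM (log axis) in pup 2 (left of each pair) and pup 1 (right), with the quantifier's interval as bars. S100a8 and S100a9 stand above the others in each library, and all specific granule and late neutrophil genes lie lower in pup 2, while Mpo and Elane lie higher in pup 2.

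The azurophil genes stood at low levels in both libraries. By TPM, Mpo and Elane were higher in pup 2 with intervals apart. By scaled counts, Mpo and Elane were slightly higher and Prtn3 lower in pup 2. Mpo, the myeloperoxidase that makes hypochlorous acid (ENSMUSG00000009350.9, chromosome 11, 87793581 to 87804413, plus strand, mm10), had 11.6 TPM in pup 2 (interval 10.7 to 13.2) against 6.53 TPM in pup 1 (6.16 to 7.71), or 9.07 ± 3.60 TPM (SD, n = 2). Its counts were 768 in pup 2 and 593 in pup 1, a log2 ratio of 0.29 (0.13 to 0.44). Elane, neutrophil elastase (ENSMUSG00000020125.6, chromosome 10, 79886247 to 79888215, plus strand), had 8.44 TPM in pup 2 (7.26 to 9.43) against 5.68 TPM in pup 1 (4.83 to 6.44), or 7.06 ± 1.95 TPM (SD, n = 2). With 227 counts in pup 2 and 188 in pup 1, the log2 ratio of Elane was 0.19 and its interval (-0.10 to 0.47) held 0, so a difference by scaled counts was not detectable at this depth. Prtn3, proteinase 3, a serine protease whose gene lies 3.07 kb from Elane (ENSMUSG00000057729.8, chromosome 10, 79874476 to 79883174, plus strand), leaned the other way by counts, while its TPM intervals overlapped. It had 6.33 TPM in pup 2 (5.68 to 8.04) against 6.92 TPM in pup 1 (6.22 to 8.31), or 6.62 ± 0.417 TPM (SD, n = 2), with 159 counts in pup 2 and 215 in pup 1 and a log2 ratio of -0.52 (-0.83 to -0.22). Prtn3 was thus the lower of these neighbours in pup 2, at an Elane over Prtn3 ratio of 1.33, and the higher in pup 1, at a ratio of 0.821, though the TPM intervals of these genes overlapped in each pup.

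The 4 specific granule genes were all lower in pup 2. Ngp, neutrophilic granule protein, a relative of the cathelicidins (ENSMUSG00000032484.7, chromosome 9, 110419747 to 110423012, plus strand), had 24.98 TPM in pup 2 (22.9 to 26.2) against 44.6 TPM in pup 1 (42.0 to 45.9), or 34.8 ± 13.9 TPM (SD, n = 2). With 868 counts in pup 2 and 1906 in pup 1, its log2 ratio was -1.22 (-1.34 to -1.10), a 2.33-fold lower scaled count in pup 2. Camp, the mouse cathelicidin precursor (ENSMUSG00000038357.9, chromosome 9, 109847379 to 109849617, minus strand), had 23.9 TPM in pup 2 (21.2 to 25.8) against 37.4 TPM in pup 1 (34.3 to 39.6), or 30.6 ± 9.56 TPM (SD, n = 2). Its counts were 391 in pup 2 and 754 in pup 1, a log2 ratio of -1.03 (-1.21 to -0.85). Lcn2, the iron-siderophore binding lipocalin (ENSMUSG00000026822.10, chromosome 2, 32384633 to 32388252, minus strand), which epithelial cells can also make, had 17.8 TPM in pup 2 (16.1 to 19.3) against 26.2 TPM in pup 1 (24.3 to 27.7), or 21.995 ± 5.95 TPM (SD, n = 2). Its counts were 478 in pup 2 and 864 in pup 1, a log2 ratio of -0.94 (-1.10 to -0.78). Ltf, the iron-binding lactoferrin (ENSMUSG00000032496.3, chromosome 9, 111019271 to 111042767, plus strand), had 5.22 TPM in pup 2 (4.67 to 5.61) against 6.69 TPM in pup 1 (6.13 to 7.09), or 5.96 ± 1.04 TPM (SD, n = 2). Ltf had 452 counts in pup 2 and 713 in pup 1, and its log2 ratio of -0.74 (-0.92 to -0.57) was the closest to 0 of this class. Camp, Ngp and Ltf lie on 1 stretch of chromosome 9, with 570 kb between Camp and Ngp and 596 kb between Ngp and Ltf.

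The 3 late neutrophil genes were all over 2-fold lower in pup 2 by scaled counts, with ratios below that of Ngp. However, the interval of Ngp (-1.34 to -1.10) overlapped those of S100a8, S100a9 and Retnlg. Ngp also lay below S100a8 and S100a9 once a trend with length and GC content was removed. S100a8, the smaller chain of calprotectin (ENSMUSG00000056054.8, chromosome 3, 90668978 to 90670035, plus strand), averaged 365 ± 166 TPM (SD, n = 2), with quantifier intervals of 233 to 253 TPM in pup 2 against 463 to 488 TPM in pup 1. Its counts were 2377 in pup 2 and 5709 in pup 1, a log2 ratio of -1.35 (-1.42 to -1.28), or 2.55-fold lower in pup 2. S100a9, the partner chain (ENSMUSG00000056071.8, chromosome 3, 90692632 to 90695721, minus strand), averaged 176 ± 73.8 TPM (SD, n = 2), with intervals of 116 to 127 TPM in pup 2 against 217 to 232 TPM in pup 1. Its counts were 1674 in pup 2 and 3804 in pup 1, a log2 ratio of -1.27 (-1.35 to -1.19). The S100 pair lies 22.6 kb apart on opposite strands. Retnlg, resistin-like gamma (ENSMUSG00000022651.5, chromosome 16, 48872621 to 48874496, plus strand), had 9.41 TPM in pup 2 (7.87 to 10.8) against 20.3 TPM in pup 1 (18.1 to 21.9), or 14.8 ± 7.67 TPM (SD, n = 2). With 157 counts in pup 2 and 416 in pup 1, it had the lowest ratio of the members, -1.49 (-1.77 to -1.22), or 2.81-fold lower in pup 2.

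**Figure D2:**
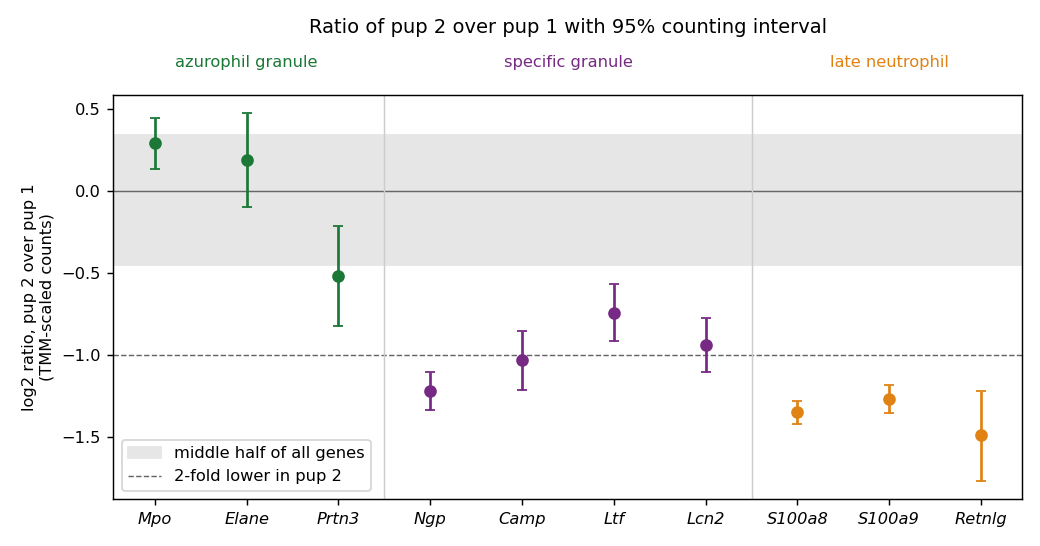
Log2 ratio of pup 2 over pup 1 by TMM-scaled counts for each gene (points, coloured by class) with exact binomial 95% intervals; the grey band spans the quartiles of all 18670 genes and the dashed line marks 2-fold lower in pup 2. The azurophil genes lie between -0.52 and 0.29, the specific granule genes between -1.22 and -0.74, and the late neutrophil genes between -1.49 and -1.27.

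Counted over the list, 8 of 10 members had a log2 ratio below 0, against 49.9% of the 18670 genes. Ngp, Camp, S100a8, S100a9 and Retnlg, 5 of 10, lay over 2-fold lower in pup 2, against 9.77% of genes. Over 2-fold higher lay 0 of 10, against 6.03% of genes, a share at which 10 genes can easily hold none. The median log2 ratio of the members was -0.99. Because the list was chosen with earlier results of these data known, these counts and shares describe it and test nothing. On the TPM scale, the quantifier's intervals were apart and lower in pup 2 for 7 of 10 members, against 11.9% of genes. They were apart and higher in pup 2 for Mpo and Elane, against 49.5% of genes, so the direction of these 2 on the TPM scale was that of much of the table. These directions are relative to the bulk of genes. When the counts were scaled by the spike-in RNA instead, the median of all genes moved to 2.57 and all 10 members lay above 0, at a median of 1.58. That scaling shifts every gene by nearly the same amount, so each direction given here and for the lists that follow holds relative to the bulk of genes only, and the members' median lay below that of all genes under it too.

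Ratios between members inside a library do not depend on how the libraries are scaled to each other, and they placed the classes apart. The log2 ratio of summed azurophil TPM (26.4 in pup 2, 19.1 in pup 1) over summed specific granule TPM (71.8 in pup 2, 115 in pup 1) was -1.45 in pup 2 against -2.59 in pup 1, with a mean of -2.02 ± 0.81 (SD, n = 2). The sum over 4 specific granule genes thus exceeded that over 3 azurophil genes 2.72-fold in pup 2 and 6.00-fold in pup 1. From class medians, which do not depend on the number of genes summed, the log2 ratio was -1.28 in pup 2 and -2.24 in pup 1. Ltf lay below each azurophil gene in pup 2. Between the pups, pup 2 minus pup 1, the log2 ratio of the sums differed by 1.14. From the counts it differed by 1.17, with a conditional exact 95% interval of 1.02 to 1.31 for counting error. The direction was the same for single genes by scaled counts. Each of the 3 azurophil genes had a higher ratio than each of the 7 later genes, in 21 of 21 pairs, which share genes, with differences from 0.22 (Prtn3 and Ltf) to 1.78 (Mpo and Retnlg). The counting interval of Prtn3 (-0.83 to -0.22) overlapped those of Ltf (-0.92 to -0.57) and Lcn2 (-1.10 to -0.78). Specific granule over late neutrophil TPM differed less, at -2.40 in pup 2 and -2.67 in pup 1, with a difference of 0.27.

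Between genes that work together or share a granule, the gaps in log2 TPM ratio between the pups ran from -0.48 to 0.96, the highest for Mpo over Prtn3 (1.84 in pup 2, 0.944 in pup 1). S100a8 stood at 2.01 times the TPM of S100a9 in pup 2 and 2.12 times in pup 1, and the interval of the log2 difference (-0.19 to 0.03) held 0. Ngp stood at 1.05 times the TPM of Camp in pup 2 and 1.19 times in pup 1 (interval -0.40 to 0.03), and Mpo at 1.38 and 1.15 times that of Elane (interval from counts -0.23 to 0.43). Within the specific class, Ngp over Ltf was 4.79 in pup 2 and 6.66 in pup 1, and this interval (-0.69 to -0.27) did not hold 0. The interval of Elane over Prtn3 (from counts, 0.29 to 1.13) did not hold 0 either, at a log2 difference of 0.70.

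**Figure D3:**
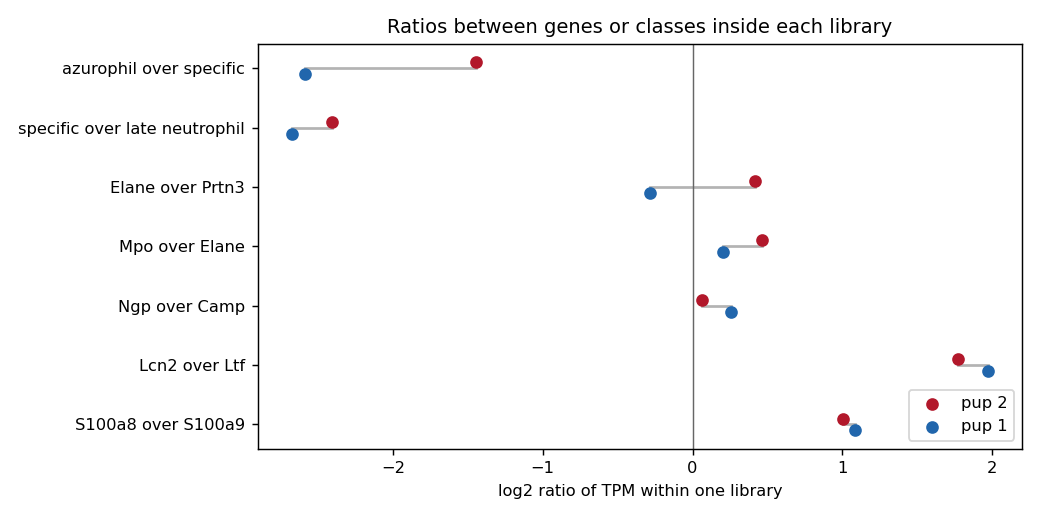
Log2 ratio of TPM between classes or partner genes within pup 2 (upper point of each row) and within pup 1 (lower point). The points of azurophil over specific lie at -1.45 and -2.59, while S100a8 over S100a9 lies at 1.00 and 1.08.

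The quantifier's own estimate left little doubt in how many reads were assigned to each member. It does not cover counting error or differences between animals. The posterior standard deviation of the count was 0 for 8 genes, at most 1.01 reads for Mpo and at most 0.71 for Prtn3. Ngp, Camp, Ltf, Elane, S100a8 and Retnlg had 1 annotated transcript. Of S100a9, transcript ENSMUST00000069960.7 held 84.4% of TPM in pup 2 and 84.0% in pup 1, and of Lcn2, ENSMUST00000050785.9 held 98.7% and 96.5%. Mpo was less even, with 76.5% of TPM in pup 2 and 93.3% in pup 1 in ENSMUST00000121303.3, and 15.99% and 3.84% in the short ENSMUST00000146650.1, which rested on 33.0 and 5.48 estimated counts. The effective length of Mpo was 2015 bases in pup 2 and 2252 bases in pup 1, and its log2 ratio was 0.83 by TPM beside 0.29 by scaled counts. Prtn3 was spread over 3 main transcripts in each library, led by ENSMUST00000165982.1 in pup 2 (56.4%, against 31.5% in pup 1) and by ENSMUST00000163188.3 in pup 1 (36.0%, against 12.4% in pup 2).

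The ratios moved with effective length, the quantifier's count of possible read starts in a transcript, over the whole table, and several later genes are short. Among 958 genes with an effective length of at most 500 bases, which include Camp, S100a8 and S100a9, the median log2 ratio was -0.45, and among 2132 genes with 500 to 1000 bases, which include Elane, Prtn3, Lcn2 and Retnlg, it was -0.19. It was 0.02 for 1000 to 2000 bases (Ngp) and 0.07 for 2000 to 4000 bases (Mpo and Ltf). With a trend on length and GC content removed, an alternative chosen after seeing the data, S100a8 stood at -0.90, S100a9 at -0.94 and Camp at -0.76. Of the 10 members, 2 (Ngp at -1.14 and Retnlg at -1.22) stayed over 2-fold lower in pup 2, against 8.52% of 18518 genes. The difference of azurophil over specific between the pups was 1.08 after that step.

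Other genes of the same stages were counted beside the members. Of 5 further promyelocyte genes, 1 had a ratio below 0, against 49.9% of all genes, and 4 lay above, with a median of 0.12. Among those 4 the interval of Ms4a3 lay above 0, and the intervals of Ctsg, Cst7 and Prss57 held 0. Ms4a3, a membrane protein gene of granulocyte and monocyte progenitors, had 1.96 TPM in pup 2 against 0.46 TPM in pup 1 (56 and 16 counts), a log2 ratio of 1.69 (0.90 to 2.62). The cathepsin G gene Ctsg had 2.5 TPM in pup 2 against 1.76 TPM in pup 1, a ratio of 0.12 (-0.38 to 0.63). Fcnb, a ficolin, had 1.72 and 2.12 TPM with a ratio of -0.76 (-1.28 to -0.27), Cst7 0.72 and 0.53 TPM, and Prss57, a serine protease of azurophil granules, 0.35 and 0.08 TPM. Of 8 further genes of specific granules, 7 were lower in pup 2, with a median of -0.75. Among those 7 the intervals of Mmp8 (-0.54 to 0.26) and Cd177 (-1.08 to 0.16) held 0. So did that of Itgb2l (-0.84 to 1.13), the gene that was higher. Mmp8 (1.37 TPM in pup 2, 1.16 TPM in pup 1) was named after its values were seen. Lyz2 had 138 TPM in pup 2 against 225 TPM in pup 1 (ratio -1.09), Hp 68.6 and 83.1 TPM (-0.66), Pglyrp1 5.35 and 8.94 TPM (-1.12) and Chil3 4.28 and 5.89 TPM (-0.84). Lyz2 is also a macrophage gene and Hp, haptoglobin, a liver gene. Cd177 (0.48 and 0.50 TPM) and Itgb2l (0.28 and 0.18 TPM) stayed under 1 TPM in both pups. When these lists were added to the classes, with Hp and Lyz2 left out, azurophil over specific stood at -1.33 in pup 2 and -2.47 in pup 1.

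Surface and protease genes of mature neutrophils were low, at 9.20 TPM in pup 2 against 10.5 TPM in pup 1 summed over the list. Of 10 genes, 3 reached 1 TPM in both pups and 5 in neither, among them the receptor genes Csf3r for G-CSF (0.91 TPM in pup 2, 0.56 TPM in pup 1), Cxcr2 for neutrophil chemokines (0.36 and 0.23 TPM) and Trem1 (0.21 and 0.22 TPM). Of the list, 8 genes lay below 0, 5 of them with an interval that held 0, and 2 above, with a median of -0.14. The 2 above were Csf3r, with a ratio of 0.52 (0.01 to 1.05), and Fpr1, a formyl peptide receptor gene named after its values were seen, with 0.97 and 0.40 TPM and a ratio of 0.86 (0.07 to 1.73). Asprv1, an aspartic protease gene, had 1.60 TPM in pup 2 against 4.09 TPM in pup 1, and its ratio of -1.73 (-2.13 to -1.36) was the lowest of the list. The gelatinase gene Mmp9 (1.74 and 1.18 TPM) was level by counts at -0.00 (-0.38 to 0.37), and Fpr2, another formyl peptide receptor gene, had 0.88 and 1.19 TPM. S100a8 and S100a9 are also expressed by monocytes, and whether part of their RNA came from such cells was not tested.

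Regulators of granulocyte formation were split in direction, 4 higher and 3 lower in pup 2 of 7 with enough counts, at a median of 0.16, and most are also active in other cells. Myb, a factor of blood progenitors, had 1.58 TPM in pup 2 against 0.39 TPM in pup 1 (180 and 55 counts), a ratio of 1.62 (1.18 to 2.09). Myb was named after its values were seen. Cebpe, which drives specific granule genes, had 0.59 TPM in pup 2 against 0.81 TPM in pup 1 on 22 and 37 counts, a ratio of -0.82 (-1.67 to -0.04), and Gfi1 had 13 and 5 counts. Spi1, the gene of PU.1, had 7.81 and 7.08 TPM with a ratio of -0.18 (-0.37 to 0.00), and Cebpa, needed for early granulocyte formation, 4.09 and 2.81 TPM with 0.16 (-0.07 to 0.39). Cebpb (168 and 72.1 TPM, ratio 0.84) and Cebpd (35.7 and 42.2 TPM, ratio -0.62) led the list by level and are widely expressed. Of the 5 genes of the NADPH oxidase, 4 were lower in pup 2 with a median of -0.52, led by Cyba (137 and 175 TPM), with Ncf4 at 5.57 and 5.90 TPM and Ncf1 at 3.58 and 4.26 TPM.

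Relatives and neighbours of the members did not all behave like them. Of 10 further S100 genes with enough counts, 9 were lower in pup 2, with a median of -0.64, led by S100a11 (842 TPM in pup 2, 868 TPM in pup 1, ratio -0.43), S100a10 (443 and 715 TPM, -1.08), S100a6 (185 and 284 TPM, -1.002) and S100a1 (96.3 and 118 TPM, -0.67). S100a5 had 0 counts in both pups, and S100a3 and S100a14 stayed under 1 TPM. The exception was S100g, named after its values were seen, with 42.8 and 14.5 TPM and a ratio of 1.17. Among relatives of Retnlg, Retn had 27 counts in pup 2 and 1 in pup 1, Retnla 14 and 0, and Retnlb 0 and 0. Cfd, adipsin, whose gene lies in the Prtn3 and Elane region of chromosome 10 and which is a gene of fat, had 3.74 TPM in pup 2 against 0.63 TPM in pup 1, a ratio of 2.15 (1.49 to 2.93). The peroxidase genes Epx (2 and 0 counts) and Lpo (1 and 1 counts), relatives of Mpo on chromosome 11, were at or near 0.

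Markers of other cells moved with the members to different degrees, and their part in the results was not tested. The 7 hepatocyte genes were all lower in pup 2, between -0.92 and -0.61 with a median of -0.82, and their summed level was 2329 TPM in pup 2 against 3037 TPM in pup 1, led by the plasma protein genes Trf, Apoa1, Ahsg and Apoa2. None of the 7 was at 0. The median of 8 erythroid genes was -0.41 with members from -0.91 (Hbb-bs) to 0.80 (Epb42), of which Epb42 was named after its values were seen. They were led by the globin genes Hba-a2, Hbb-bs, Hba-a1 and Hbb-bt, near-identical pairs among which reads can be divided wrongly, and summed to 23394 and 28848 TPM. The 4 monocyte genes F13a1, Ccl9, Ly6c2 and Ccr2 were all lower in pup 2, with a median of -0.52 and a summed level of 46.0 TPM in pup 2 against 52.1 TPM in pup 1. Of 8 macrophage genes, led by C1qb, C1qa, C1qc and Cd68, 6 were lower with a median of -0.28, and their sum was 385 and 401 TPM. Mast cell and basophil genes went the other way, with 5 of 6 higher in pup 2 and a median of 0.45. Cpa3 (43.2 and 40.8 TPM), Tpsb2 (49.2 and 29.9 TPM), Cma1 (46.3 and 30.4 TPM) and Mcpt4 (5.24 and 2.70 TPM) led them and only Mcpt8 stayed under 1 TPM in both pups. By scaled counts Cpa3 was the exception, lower in pup 2 with a ratio of -0.30 (-0.39 to -0.21). Eosinophil and lymphocyte genes were low: 4 of 6 (Prg3, at 0 counts in both pups, with Epx, Ear6 and Ear1) and 5 of 6 (all but Cd79a) were under 1 TPM in both pups. Ear2 (2.71 and 4.51 TPM), whose reads can be shared with its close relatives, and Prg2 (1.28 and 0.84 TPM) led the eosinophil list. In the lymphocyte list, Cd79a had 2.27 and 1.44 TPM, Ms4a1 0.82 and 0.39 TPM and Cd3g 0.48 and 0.56 TPM. The late neutrophil median of -1.35 and the specific granule median of -0.99 lay below the medians of all these lists. Of the specific granule members, Ltf (-0.74) lay within the hepatocyte range. The lists were not compared with the trend on length and GC content removed.

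**Figure D4:**
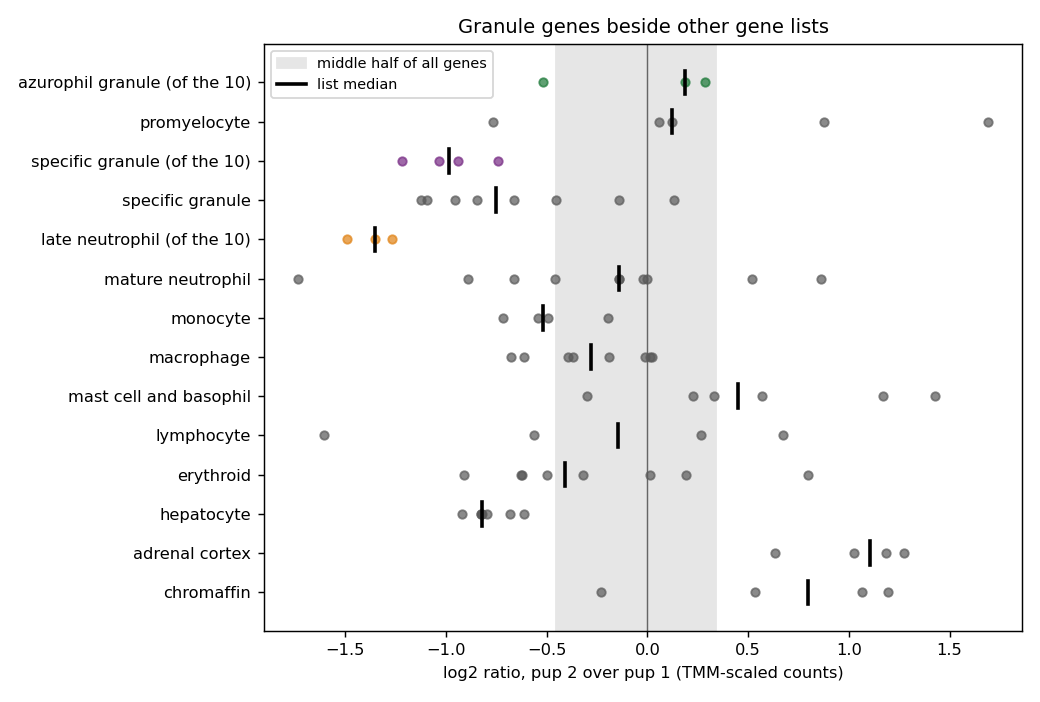
Log2 ratio of pup 2 over pup 1 by TMM-scaled counts for the genes of each list (points) with the list median (black bar); coloured points are the 10 genes, and the grey band spans the quartiles of all genes. The azurophil median (0.19) and the promyelocyte median (0.12) lie above 0, and the specific granule and late neutrophil medians (-0.99 and -1.35) lie left of the hepatocyte median (-0.82).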

How the data were processed

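Total RNA-seq tables of 2 newborn adrenal libraries were used, 1 library per pup. Per the file headers, the authors deposited expected counts (estimated counts, with a posterior mean count and its standard deviation), TPM scaled over all rows of a file with the quantifier's interval, FPKM, and, per transcript, the percent it takes of its gene. The interval bounds and standard deviation are deposited as signal-type values in TPM and in counts. Per the deposited text files the build is mm10 and the annotation GENCODE M4; aligner, quantifier and strand handling: not given in the sources used here.

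Symbols came by Ensembl identifier from a table that named 42462 of 43346 genes, coordinates and exons from GENCODE M21 on the same build. The 26248 numbered rows (9.59e-05% of counts in pup 2, 2.65e-05% in pup 1) and 97 spike-in rows (0.00250% and 0.0138%) were left out of library sizes. Expected counts were rounded, scaled by TMM in edgeR 4.0.16 (R 4.3.3) over genes averaging 10 counts or more, and 0.5 was added before log2. A ratio over 2-fold is a log2 ratio beyond 1. Intervals are exact binomial or conditional exact, at 95%. They cover counting error only and treat each read as independent. Without molecular identifiers several reads can stem from 1 molecule, which would make the intervals too narrow. The ratio and interval steps were tested on simulated data with balanced changes and no trend with length. Such data could not show whether the scaling and intervals hold for these libraries. No test between the pups was run.

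The members, classes and lists were chosen with earlier results of these data known. By rule, every member and the 4 highest genes of each further list are named, with up to 3 under TPM 1; Ahsp and Azu2 had no match, and a few genes the rule would name are not reported here. Motif words were chosen after the sequences were seen. No genes were ranked by likeness to the members, since 2 libraries give 1 ratio. Alternatives were DESeq2 1.42.0 size factors, spike-in scaling, posterior mean counts, other minimums and pseudocounts, TPM, FPKM, other class definitions, leaving out each pup and removal of a length and GC trend (polynomials of degree 3). The remaining work ran in scipy 1.17.1, pandas 2.3.3, numpy 2.4.6 and matplotlib 3.10.9 under python 3.11.15.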

Additional observations from a re-analysis of the deposited data

How the results depend on the processing

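Under spike-in scaling the median log2 ratio of the members turned to 1.58, with Ngp at 1.35, Camp at 1.54, S100a8 at 1.22, S100a9 at 1.30 and Retnlg at 1.08. Under that scaling 0 members were over 2-fold lower in pup 2, against 0.44% of genes. The spike-in rows held 1022 counts in pup 2 and 5717 in pup 1. With log2(TPM + 0.1) the members' median was -0.60, where the median of all genes was 0.38. On that scale 1 member (Retnlg) was over 2-fold lower in pup 2, against 4.08% of genes. With the trend on length and GC content removed, chosen after seeing the data, the members' median was -0.78. After that step 2 members were over 2-fold lower in pup 2, against 8.52% of genes. The other scalings, minimums, pseudocount, counts and FPKM kept 4 or 5 members over 2-fold lower, against 6.55% to 9.79% of genes. Azurophil over specific, pup 2 minus pup 1, was 0.97 from class medians and 1.37 with S100a8, S100a9 and Retnlg added to the later class, whose mean log2 ratio was then -4.78; the sign held in all 8 alternatives run. Leaving out a pup leaves 1 library and a mean of -2.59 or -1.45. No paired analysis was possible because both libraries belong to 1 group. Depth limits Prtn3, Elane and Retnlg, which had the fewest counts and the widest intervals, more than the other members.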
